A study of Mus musculus with 12 samples.

Results

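The actins and a set of contractile genes that are classical targets of serum response factor (SRF) were followed through 4 culture conditions of 1 mouse cell line. The genes were Actb, Actg1, Acta2, Actg2, Tagln, Cnn1, Myl9, Tpm1, Tpm2 and Vcl. They were chosen by name, each matched 1 row of the 56350 genes counted, and all 10 were among the 16484 genes that passed the filter of more than 10 counts in at least 3 libraries. The cells were MPC2, murine progenitor cells clone 2, a conditionally immortalized mesenchymal stem cell line that represents a single clone. Libraries labelled MSC came from cells proliferating at 33 °C, and libraries labelled osteocyte came from cells held for 3 weeks at 37 °C in medium with beta-glycerophosphate and ascorbic acid. Cells of both kinds received DMSO vehicle or 50 µM FG-4592 (Roxadustat), an inhibitor of the prolyl hydroxylases that mark hypoxia-inducible factor (HIF) for degradation, for 48 hours, with 3 libraries in each of the 4 conditions. Differentiation, temperature and medium changed together, so their parts in a difference between MSCs and osteocytes cannot be told apart.

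Actin monomers assemble into filaments that give a cell its shape, tension and adhesion. SRF binds a short DNA element, the CArG box, next to many actin and contractile genes. Its partners of the myocardin family (MRTFs) are held in the cytoplasm by free actin monomers and enter the nucleus when monomers are used up in filaments, while partners of the ternary complex family (TCFs) answer to growth factor signalling. Smooth muscle, pericytes and myofibroblasts express this program strongly, and mesenchymal progenitors grown on plastic carry part of it.

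The 12 libraries held between 52829185 and 68108470 counts, and each library's nearest neighbour over all genes was of its own condition. The 10 genes together took between 0.305% and 1.20% of a library's counts. Of the osteocyte markers, Phex rose from a mean of 0.977 CPM (counts scaled to the TMM library size) in vehicle-treated MSCs to 57.6 CPM in vehicle-treated osteocytes and Dmp1 from 1.19 to 11.2 CPM, while Sost was at 0 counts in every library and Mepe and Pdpn had between 0 and 2. No source used here says whether the 3 libraries of a condition came from separate cultures, so p-values measure only the spread between these libraries, which may be technical.

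Of the 10 genes, 7 have an entry in the RefSeq promoter table for GRCm38.p6, which spans 250 bases before to 50 bases after each start (Actg1, Acta2, Cnn1, Myl9, Tpm1, Tpm2 and Vcl). A CArG box, read as CC, then 6 bases that are each A or T, then GG (a pattern that is its own reverse complement), lay in the windows of 3 of these 7 genes, against 1.63% of all 32851 windows in the table. Counting CArG-like elements too, in which 1 of the 6 centre bases is G or C, 4 of the 7 windows held a match, against 9.98% of all windows. The stretches below are shown because they carry those elements, in capitals, written 5′ to 3′ on the strand of the gene, and they leave out bases that lie in an exon of the counted gene models except for the 2 short Acta2 stretches. In Myl9 the box began 161 bases before the start and a CArG-like element 99 bases before it. In Actg1 the box began 90 bases before the start, in Vcl 227 bases before it, and in Acta2 the CArG-like elements began 84 and 34 bases before it.
Myl9, chr2:156775214-156775419, plus strand: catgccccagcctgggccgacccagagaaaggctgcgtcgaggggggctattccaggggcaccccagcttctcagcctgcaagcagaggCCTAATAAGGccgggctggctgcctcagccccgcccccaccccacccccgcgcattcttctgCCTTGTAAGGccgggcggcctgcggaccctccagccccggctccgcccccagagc
Actg1, chr11:120348543-120348677, minus strand: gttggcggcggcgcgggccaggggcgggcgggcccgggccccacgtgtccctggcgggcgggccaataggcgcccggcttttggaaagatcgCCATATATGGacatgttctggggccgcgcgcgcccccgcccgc
Vcl, chr14:20929148-20929397, plus strand: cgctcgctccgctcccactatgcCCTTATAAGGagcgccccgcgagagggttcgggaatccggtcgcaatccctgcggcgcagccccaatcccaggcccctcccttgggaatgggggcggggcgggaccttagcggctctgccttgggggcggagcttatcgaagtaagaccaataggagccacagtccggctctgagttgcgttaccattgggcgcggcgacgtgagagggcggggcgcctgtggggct
Acta2, chr19:34255438-34255467, minus strand: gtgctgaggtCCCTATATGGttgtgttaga
Acta2, chr19:34255388-34255417, minus strand: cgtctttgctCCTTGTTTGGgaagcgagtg
The core of the HIF response element, searched as ACGTG or GCGTG on both strands, was present in 4 of the 7 windows (Actg1, Cnn1, Tpm1 and Vcl), against 43.8% of all windows, and the 2 matches in Actg1 overlap each other. These matches describe the letters of the windows and do not show binding.

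The whole set was lower with FG-4592. All 10 genes were lower in FG-4592-treated than in vehicle-treated MSCs at a false discovery rate (FDR, the edgeR quasi-likelihood p adjusted over all 16484 genes) under 0.05, and 20.4% of all genes tested were lower by that rule and 17.6% higher. All 10 were also lower in FG-4592-treated osteocytes, where 22% of all genes were lower and 21.9% higher. In both cell types 6 genes (Acta2, Actg2, Tagln, Cnn1, Myl9 and Tpm1) also passed a log2 fold change of 1, which 5.17% of all genes did downwards in MSCs and 4.26% in osteocytes. The median log2 fold change of the 10 genes was −1.09 in MSCs and −1.57 in osteocytes, beside −0.05 and 0.00 over all genes. Every FG-4592-treated library was below every vehicle-treated library for 10 of 10 genes in MSCs, against 27.3% of all genes, and for 9 of 10 in osteocytes, against 25.7%, with Cnn1 as the exception. In these bulk samples fewer cells of a type and less RNA per cell cannot be told apart.

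**Figure D1:**
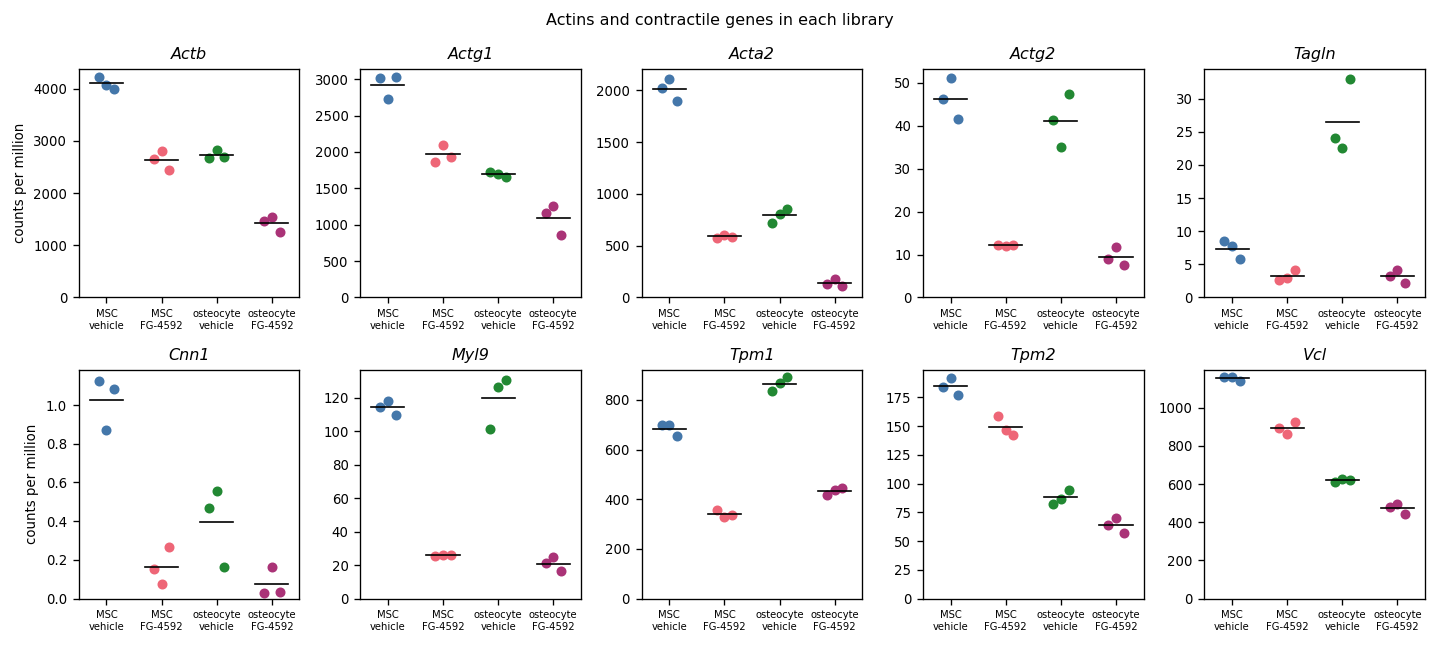
CPM (linear axes that start at 0) of the 10 genes in each library, with 3 points per condition and a line at their mean. FG-4592-treated libraries lie below their vehicle-treated controls in each panel except for Cnn1 in osteocytes, and Tagln is highest in vehicle-treated osteocytes, at a mean of 26.5 CPM.

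The cytoplasmic actins were the most abundant and moved the least among the actins with FG-4592. Actb encodes beta-actin, the filament protein of every nucleated cell, and lies on chr5:142903115-142906754 (mm10, minus strand). It had 4231, 4070 and 3994 CPM in MSCs given vehicle and 2659, 2796 and 2450 in MSCs given FG-4592. Osteocytes had 2678, 2830 and 2687 CPM with vehicle and 1472, 1538 and 1258 with FG-4592. FG-4592-treated MSCs and vehicle-treated osteocytes thus overlapped, while the other conditions stood apart. With FG-4592 it fell by 0.64 on the log2 scale in MSCs (SE 0.0647, FDR 8.28e-07) and by 0.94 in osteocytes (SE 0.0651, FDR 6.54e-09). Actg1 (chr11:120345690-120348542, minus strand) encodes gamma-actin, the second cytoplasmic form. Its libraries had 3016, 2725 and 3034 CPM in MSCs given vehicle and 1865, 2101 and 1937 in MSCs given FG-4592. Osteocytes had 1722, 1699 and 1662 CPM with vehicle and 1159, 1261 and 864 with FG-4592. No condition overlapped another for Actg1. FG-4592 gave log2 fold changes of −0.57 in MSCs (SE 0.0969, FDR 0.000184) and −0.63 in osteocytes (SE 0.0970, FDR 5.55e-05).

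The smooth muscle actins fell further. Acta2 (chr19:34241090-34255590, minus strand) encodes alpha smooth muscle actin, the usual myofibroblast marker. It had 2024, 2107 and 1896 CPM in MSCs given vehicle and 576, 606 and 586 in MSCs given FG-4592. In osteocytes it had 719, 808 and 853 CPM with vehicle and 130, 176 and 110 with FG-4592. All 4 conditions were separate for Acta2, and the step from the highest to the lowest condition was from a mean of 2009 to 139 CPM. The log2 fold change with FG-4592 was −1.77 in MSCs (SE 0.119, FDR 6.17e-09), which is 3.41-fold lower, and −2.52 in osteocytes (SE 0.123, FDR 8.78e-11), which is 5.73-fold lower. Actg2 (chr6:83512905-83536265, minus strand), the gamma form of visceral smooth muscle, was scarcer. It had 46.3, 51.1 and 41.5 CPM in vehicle-treated MSCs and 41.2, 35.0 and 47.4 in vehicle-treated osteocytes, which overlap. With FG-4592 it had 12.1, 12.0 and 12.2 CPM in MSCs and 8.93, 11.8 and 7.49 in osteocytes. FG-4592 changed it by −1.93 on the log2 scale in MSCs (SE 0.137, FDR 1.17e-08) and −2.13 in osteocytes (SE 0.140, FDR 3.31e-09).

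Transgelin and calponin are actin-binding proteins used as markers of the smooth muscle state. Tagln (chr9:45929619-45936058, minus strand) had 8.52, 7.70 and 5.75 CPM in MSCs given vehicle and 2.702, 2.89 and 4.15 in MSCs given FG-4592. In vehicle-treated osteocytes it had 24.1, 22.5 and 33.0 CPM, and in FG-4592-treated osteocytes 3.25, 4.12 and 2.15. The osteocyte vehicle libraries stood above all others, and the FG-4592 libraries of both cell types overlapped. The log2 fold change with FG-4592 was −1.17 in MSCs (SE 0.226, FDR 0.000596) and −3.06 in osteocytes (SE 0.228, FDR 1.61e-08), the largest in osteocytes among the 10 genes. An antisense gene, Gm48529, covers 1241 of the 1988 exonic bases of Tagln. Pairs were counted without strand and for each gene they overlapped, so a pair in the shared bases counted for both genes, whichever it came from. Gm48529 held only 71 to 147 counts per library, so no more Tagln pairs than that can lie in those bases. In vehicle-treated osteocytes, with 1254 to 2027 Tagln counts, most pairs therefore came from its other bases. With all Gm48529 counts taken off Tagln, a calculation chosen after seeing the data, its log2 fold change was −1.94 in MSCs (FDR 0.00604) and −4.25 in osteocytes (FDR 4.56e-06). The subtraction also removes Tagln's own pairs in the shared bases. With 130 to 252 Tagln counts in FG-4592-treated osteocytes it leaves few, so the larger falls do not correct the first values. Pcsk7, on the other strand, shares a further 108 bases and held 1306 to 2129 counts, whose part in the Tagln counts was not tested.

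Cnn1 (chr9:22099216-22109630, plus strand), basic calponin, was close to the limit of detection. It had 62, 52 and 69 counts in MSCs given vehicle and 9, 5 and 17 in MSCs given FG-4592. Osteocytes had 31, 31 and 10 counts with vehicle and 2, 10 and 2 with FG-4592. The lowest vehicle-treated and the highest FG-4592-treated osteocyte library thus had the same count. FG-4592 gave a log2 fold change of −2.64 in MSCs (SE 0.624, FDR 0.00304) and −2.36 in osteocytes (SE 0.690, FDR 0.0108). The osteocyte value rested on single libraries: it was −1.98 (FDR 0.0508) without FG-4592-treated osteocyte replicate 1 and −3.55 (FDR 0.00259) without replicate 2.

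The myosin light chain and the tropomyosins answered unequally. Myl9 (chr2:156775420-156781658, plus strand) encodes the regulatory light chain of smooth muscle and non-muscle myosin II. Its values were 115, 118 and 110 CPM in MSCs given vehicle and 25.3, 26.2 and 26.3 in MSCs given FG-4592. In osteocytes they were 101, 127 and 131 CPM with vehicle and 21.2, 25.1 and 16.4 with FG-4592. Vehicle-treated MSCs and osteocytes overlapped, and both stood far above their FG-4592-treated counterparts. The fall came to −2.14 on the log2 scale in MSCs (SE 0.118, FDR 5.60e-10) and −2.52 in osteocytes (SE 0.121, FDR 6.92e-11). Tropomyosins lie along the actin filament and set which myosins and severing proteins reach it. Tpm1 (chr9:67022590-67049406, minus strand) had 697, 700 and 653 CPM in MSCs given vehicle and 358, 329 and 335 in MSCs given FG-4592. Osteocytes had 835, 870 and 892 CPM with vehicle and 418, 437 and 444 with FG-4592. Its response lay at the threshold of 1 in both cell types, with log2 fold changes of −1.0045 in MSCs (SE 0.0488, FDR 1.09e-10) and −1.0005 in osteocytes (SE 0.0487, FDR 8.46e-11), so small shifts in scaling move it in or out of the 6 genes that pass it. Tpm2 (chr4:43514711-43523765, minus strand) had 184, 192 and 177 CPM in MSCs given vehicle and 158, 147 and 142 in MSCs given FG-4592. Osteocytes had 82.5, 87.0 and 94.8 CPM with vehicle and 63.9, 69.9 and 57.3 with FG-4592. No 2 conditions overlapped, and the FG-4592 steps were small, at −0.31 on the log2 scale in MSCs (SE 0.0696, FDR 0.00223) and −0.47 in osteocytes (SE 0.0707, FDR 4.64e-05).

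Vcl (chr14:20929398-21033676, plus strand) encodes vinculin, which ties actin filaments to integrin and cadherin adhesions. It had 1160, 1161 and 1138 CPM in MSCs given vehicle and 894, 862 and 926 in MSCs given FG-4592. Osteocytes had 610, 625 and 619 CPM with vehicle and 482, 495 and 441 with FG-4592. The 4 conditions were separate, with a larger step between cell types than with FG-4592. The log2 fold change with FG-4592 was −0.37 in MSCs (SE 0.0471, FDR 1.09e-05) and −0.39 in osteocytes (SE 0.0471, FDR 4.87e-06). Its exons overlap the antisense gene Ap3m1 over 2090 of 8191 bases. Taking the 4511 to 7832 counts of Ap3m1 off Vcl, likewise chosen after seeing the data, gave −0.46 and −0.38.

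**Figure D2:**
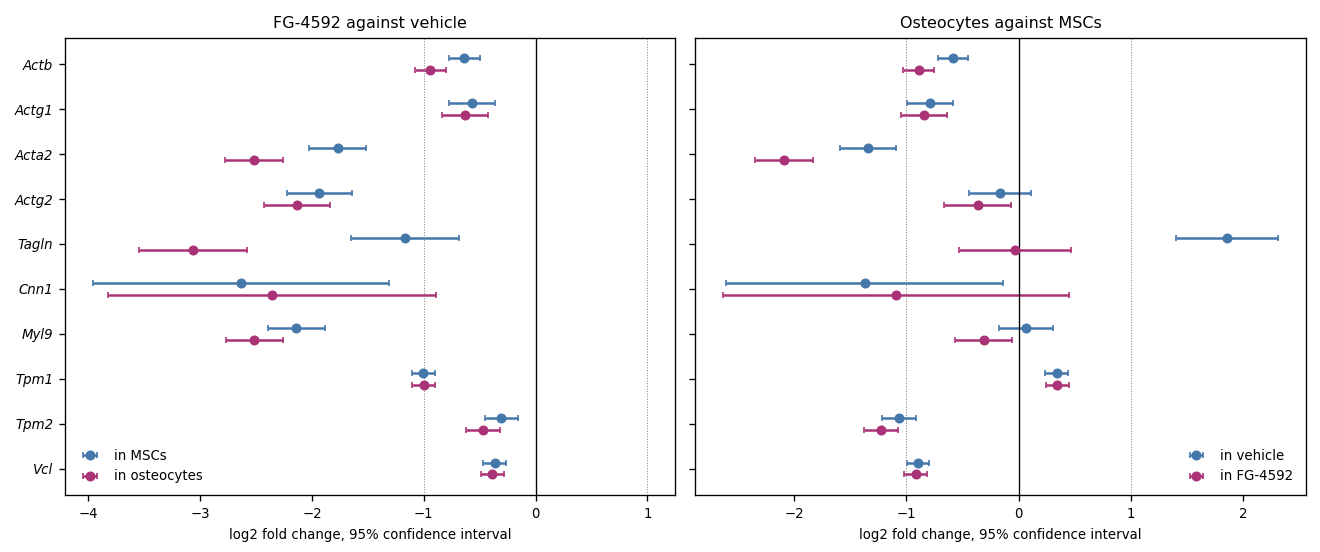
Log2 fold changes of the 10 genes with 95% confidence intervals (horizontal axis) for FG-4592 against vehicle (left) and osteocytes against MSCs (right), with dotted lines at −1 and 1. All 10 FG-4592 effects lie below 0 in both cell types, whereas Tagln and Tpm1 lie above 0 for differentiation in vehicle.

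The response differed between the cell types for 3 genes. The log2 fold change with FG-4592 in osteocytes minus that in MSCs, tested as an interaction, was −1.89 for Tagln (SE 0.315, FDR 0.000369), −0.75 for Acta2 (SE 0.165, FDR 0.00327) and −0.30 for Actb (SE 0.0912, FDR 0.0231). All 3 fell further in osteocytes. Over all genes, 11% had a lower and 13.3% a higher response in osteocytes at this FDR. Tagln also passed a difference of 1, which 1.07% of all genes did downwards and 3.94% upwards. The Actb difference was −0.26 (FDR 0.0653) without FG-4592-treated MSC replicate 2. For the other 7 genes the difference did not pass the FDR, with 95% confidence intervals from −0.16 to 0.12 for Vcl, −0.14 to 0.15 for Tpm1, −0.37 to 0.05 for Tpm2, −0.35 to 0.23 for Actg1, −0.60 to 0.21 for Actg2, −0.72 to −0.03 for Myl9 before adjustment (FDR 0.109) and −1.85 to 2.40 for Cnn1. The narrow intervals of Vcl and Tpm1 leave little room for a difference, while that of Cnn1 leaves room for one of several fold in either direction. The Myl9 difference passed the FDR without vehicle-treated osteocyte replicate 1 (−0.53, FDR 0.0145) and without FG-4592-treated osteocyte replicate 2 (−0.54, FDR 0.0151).

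Differentiation split the set instead of shifting it one way. Between vehicle-treated MSCs and osteocytes 5 genes fell and 2 rose at an FDR under 0.05, while 24.9% of all genes were lower and 26% higher. Acta2 fell by 1.34 on the log2 scale (SE 0.118, FDR 9.28e-08) and Tpm2 by 1.07 (SE 0.0706, FDR 2.82e-09), both past a log2 fold change of 1, which 6.08% of all genes passed downwards. Vcl fell by 0.90, Actg1 by 0.79 and Actb by 0.59, with FDR values of 1.66e-10, 4.52e-06 and 1.33e-06. Tagln went the other way with a log2 fold change of 1.86 (SE 0.213, FDR 1.98e-06), 3.63-fold higher in osteocytes, while 9.83% of all genes rose past an FDR of 0.05 and a log2 fold change of 1. Tpm1 rose by 0.34 (SE 0.0483, FDR 1.95e-05). The other genes did not pass, with −0.17 for Actg2 (SE 0.130, FDR 0.305), 0.07 for Myl9 (SE 0.112, FDR 0.656) and −1.37 for Cnn1 (SE 0.580, FDR 0.0596). Cnn1 passed without FG-4592-treated osteocyte replicate 2 (FDR 0.0376).

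Under FG-4592 the same comparison of cell types gave 7 lower genes and 1 higher, where 25.3% of all genes were lower and 30.5% higher. Acta2 fell by 2.09 on the log2 scale (SE 0.121, FDR 4.16e-10) and Tpm2 by 1.23 (SE 0.0711, FDR 4.05e-10), past the threshold of 1 that 5.64% of all genes passed downwards and 12.6% upwards. Vcl fell by 0.92, Actb by 0.89 and Actg1 by 0.85, and Tpm1 rose by 0.35. Tagln, which rose with differentiation in vehicle, had a log2 fold change of −0.03 here (SE 0.235, FDR 0.912). Cnn1 had −1.10 (SE 0.725, FDR 0.216), and −2.28 (FDR 0.0351) without FG-4592-treated osteocyte replicate 2. Actg2 fell by 0.37 (FDR 0.0364) and Myl9 by 0.31 (FDR 0.0356). Both calls depended on the libraries: without FG-4592-treated MSC replicates 1, 2 or 3, or without FG-4592-treated osteocyte replicate 1, the FDR lay between 0.0549 and 0.104, and without osteocyte replicate 3 the values were −0.23 for Actg2 (FDR 0.182) and −0.16 for Myl9 (FDR 0.191). Without osteocyte replicate 2 Actg2 had −0.55 (FDR 0.00193).

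Levels can be compared between genes only per length, as CPM divided by exon length in kilobases (RPKM). On that scale the order in vehicle-treated MSCs was Actb with a mean of 1530 ± 45.1 RPKM (SD, n = 3), Actg1 with 1100.4 ± 65.3, Acta2 with 915 ± 48.4, Vcl with 141 ± 1.54, Tpm1 with 105 ± 4.06, Myl9 with 98.3 ± 3.61, Tpm2 with 63.5 ± 2.52, Actg2 with 29.7 ± 3.08, Tagln with 3.68 ± 0.715 and Cnn1 with 0.375 ± 0.0505. Only the neighbours Tpm1 (100.7 to 108 RPKM) and Myl9 (94.6 to 102) overlapped over the 3 libraries. In FG-4592-treated osteocytes more neighbours overlapped. There Actb had 531 ± 54.6 RPKM (469.7 to 574) and Actg1 412 ± 77.6 (325 to 474.4), which overlap. Acta2, at 63.1 ± 15.5, overlapped with both Tpm1, at 66.7 ± 2.10, and Vcl, at 57.7 ± 3.45, and Tpm2, at 21.9 ± 2.15, with Myl9, at 17.98 ± 3.78. In vehicle-treated MSCs the smooth muscle markers Tagln and Cnn1 were thus scarce beside abundant Acta2. The Tagln level was divided by all 1988 exonic bases. At most 71 to 147 counts per library can lie in the 1241 shared with Gm48529, so that level is uncertain.

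Summed over the 4 actin genes per length, the level fell from 3575 ± 78.8 RPKM in vehicle-treated MSCs to 2000 ± 105 with FG-4592, and from 2045 ± 42.5 to 1012 ± 147 RPKM in osteocytes. The make-up of that sum changed as well. Acta2 and Actg2 together held 26.0%, 28.1% and 25.3% of it in MSCs given vehicle and 13.7%, 13.4% and 14.3% after FG-4592. In osteocytes they held 17.7%, 18.7% and 20.5% with vehicle and 6.18%, 7.72% and 6.45% with FG-4592. The share of the smooth muscle forms was therefore lower by 12.6 percentage points in MSCs and 12.2 in osteocytes, with no overlap. An exact two-sided permutation test gave p = 0.1 for each of these comparisons, the smallest that 3 against 3 libraries allow (0.114 after Benjamini-Hochberg adjustment over 16 such tests). Between the cytoplasmic forms, the ratio of Actb to Actg1 was 1.39 ± 0.0879 in MSCs given vehicle and 1.33 ± 0.0803 after FG-4592 (exact permutation p = 0.5), and 1.5997 ± 0.0552 and 1.31 ± 0.124 in osteocytes (exact permutation p = 0.1). Actg1 shares 29.9% of its 100-base transcript stretches with 6 other genes, among them the locus Gm12715, and reads that map to several places were dropped at the quality minimum, so its level relative to Actb is uncertain. Actb shares 0.644%, and Acta2 and Actg2 share none.

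**Figure D3:**
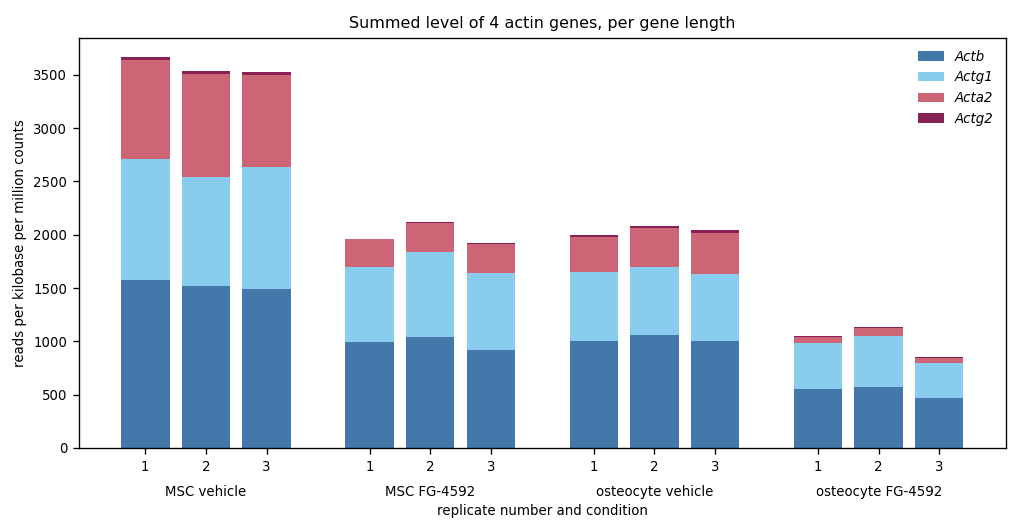
Stacked levels of the 4 actin genes (vertical axis, RPKM, from 0) in each of the 12 libraries. The summed level and the red Acta2 segment both shrink with FG-4592, and the smooth muscle share is lowest in FG-4592-treated osteocytes, at 6.18% to 7.72%.

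The remaining actin genes were at or near 0. Acta1, the skeletal muscle form, had 0 to 28 counts and Actbl2 0 or 1. Actc1, the cardiac form, had 21 to 49 counts in MSCs given vehicle and 0 to 4 after FG-4592, a log2 fold change of −4.37 (SE 1.27, FDR 0.0122) from counts too low to fix its size.

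Actb is widely used as a reference gene in quantitative PCR, and here its condition means spanned 2.88-fold from the lowest to the highest. Among 14 genes, Actb and 13 reference genes, this placed it at rank 12 from the most even. Tbp spanned 1.20-fold and Ywhaz 1.25-fold. Gapdh, a glycolytic enzyme and HIF target, spanned 12.5-fold and Pgk1, another such enzyme, 21.8-fold. Gapdh rose with FG-4592 by 2.69 on the log2 scale in MSCs (SE 0.0449, FDR 2.53e-16) and by 3.24 in osteocytes (SE 0.0460, FDR 6.30e-17), opposite to Actb. The ratio of Actb counts to Gapdh counts was 2.79 ± 0.0397 in MSCs given vehicle and 0.277 ± 0.0143 after FG-4592, 10.1-fold lower. In osteocytes it was 3.60 ± 0.184 and 0.198 ± 0.0223, 18.2-fold lower. Each comparison had no overlap and an exact permutation p = 0.1, the smallest possible.

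**Figure D4:**
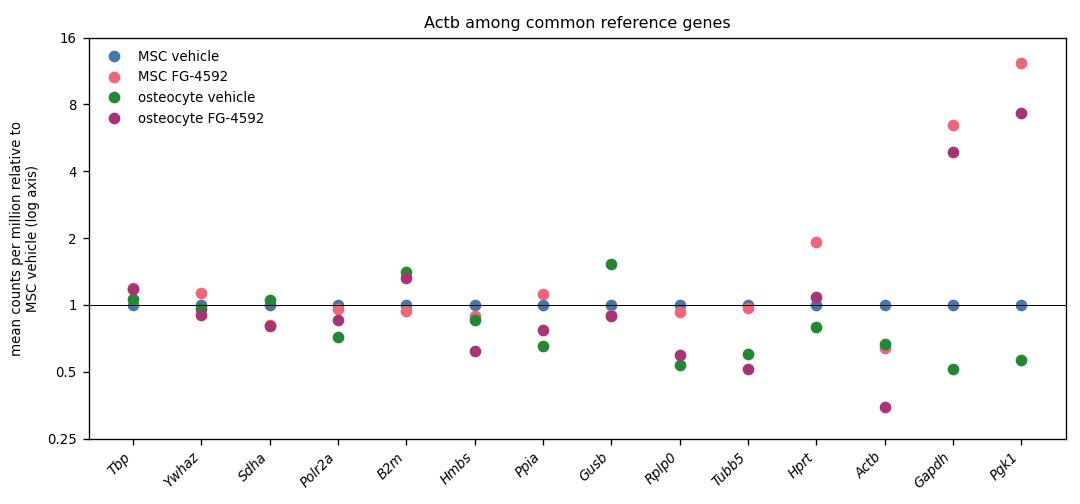
Mean CPM of Actb and 13 reference genes in each condition relative to vehicle-treated MSCs (log axis), ordered from the most even gene on the left. Actb drops while Gapdh and Pgk1 climb with FG-4592, and Tbp and Ywhaz stay within 1.25-fold.

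The regulators of the program changed in both directions at the transcript level. Srf itself had 33.8, 35.1 and 42.6 CPM in MSCs given vehicle and 31.0, 34.4 and 34.3 in MSCs given FG-4592. Osteocytes had 33.3, 36.0 and 30.6 CPM with vehicle and 28.7, 32.0 and 26.0 with FG-4592. Vehicle and FG-4592 libraries overlapped in each cell type, while vehicle-treated MSCs lay above FG-4592-treated osteocytes, with log2 fold changes for FG-4592 of −0.16 in MSCs (SE 0.0954, FDR 0.201) and −0.21 in osteocytes (SE 0.0959, FDR 0.0972). Mrtfa, the monomer-sensing coactivator, fell by 0.32 with FG-4592 in MSCs (FDR 0.000167), had −0.08 in osteocytes (FDR 0.278) and fell by 1.05 with differentiation in vehicle (FDR 1.16e-10). Mrtfb, its paralog, rose with FG-4592 by 0.28 in MSCs (FDR 0.000615) and 0.63 in osteocytes (FDR 8.86e-08). Myocd, the cardiac and smooth muscle coactivator, had 0 or 1 count in each library. Of 14 regulators tested out of 15, 6 rose and 2 fell with FG-4592 in MSCs and 5 rose and 2 fell in osteocytes, with medians of 0.20 and −0.01. Of all genes, 17.6% rose and 20.4% fell in MSCs (median −0.05), and 21.9% rose and 22% fell in osteocytes (median 0.00). The coactivator-binding Fhl2 fell by 0.53 in MSCs and 0.30 in osteocytes. Rock2 rose by 0.51 (FDR 1.95e-05) and Rock1 by 0.32 (FDR 0.00184) in MSCs. In osteocytes Scai rose by 0.33 (FDR 0.00848) and Elk3 fell by 0.26 (FDR 0.00162). These are transcript levels and say nothing of where the proteins were in the cell.

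Other contractile and adhesion genes fell more often than they rose, by less than the 10 genes. Of 37 such genes, all tested, 26 fell and 3 rose with FG-4592 in MSCs (median log2 fold change −0.33), and 20 fell and 3 rose in osteocytes (median −0.26). Of all genes 20.4% fell and 17.6% rose in MSCs (median −0.05), and 22% fell and 21.9% rose in osteocytes (median 0.00). Mylk, the kinase that phosphorylates the myosin light chain, fell by 1.64 in MSCs (SE 0.0621, FDR 4.77e-12) and 1.09 in osteocytes (SE 0.0574, FDR 2.24e-10). Lmod1, a smooth muscle actin nucleator, fell by 1.67 in MSCs and the non-muscle myosin heavy chain Myh10 by 1.71. In osteocytes Filip1l fell by 1.36 and Cnn3, acidic calponin, by 1.28. Smtn, smoothelin of contractile smooth muscle, rose against this trend by 0.30 in MSCs (FDR 0.000363) and 1.18 in osteocytes (FDR 4.12e-11), while Des, the intermediate filament desmin, fell by 1.499 in MSCs (FDR 1.37e-06) and rose by 0.61 in osteocytes (FDR 0.00384). With differentiation in vehicle, 24 of the 37 fell and 5 rose (median −0.52), against 24.9% and 26% of all genes (median −0.01). The largest log2 fold changes among the 37 were those of Synpo2 (3.47), Mylk (2.17) and Fhl1 (2.10) upwards and Filip1l (−1.58), Zyx (−1.21) and Csrp1 (−1.07) downwards.

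More genes of actin turnover passed the test in osteocytes than in MSCs. Of 20 tested out of 22, 7 fell and 2 rose with FG-4592 in MSCs (median −0.08), and 15 fell and 3 rose in osteocytes (median −0.34). Over all genes 20.4% fell and 17.6% rose in MSCs, and 22% and 21.9% in osteocytes. The interaction passed the FDR for 16 of the 20, lower in osteocytes for 13 and higher for 3, against 11% and 13.3% of all genes. Dstn, the depolymerizing factor destrin, fell by 0.44 in MSCs and 0.92 in osteocytes, with a difference of −0.48 (SE 0.0602, FDR 3.00e-05). Gsn, the severing protein gelsolin, rose by 0.76 in osteocytes (FDR 2.90e-09), with a difference of 0.84 (FDR 2.79e-07). Tmsb4x, the monomer-binding thymosin beta 4, fell by 0.88 in MSCs (FDR 2.11e-05) and had 0.06 in osteocytes (FDR 0.718), with a difference of 0.94 (FDR 0.00066). Pfn2, profilin 2, rose by 0.84 in MSCs (FDR 5.68e-08) and had 0.12 in osteocytes (FDR 0.161), with a difference of −0.72 (FDR 5.07e-05).

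Targets that SRF shares with other partners gave mixed values, and several counts lay near the share over all genes (20.4% lower and 17.6% higher with FG-4592 in MSCs, 22% and 21.9% in osteocytes). Of 10 immediate early genes tested out of 11, which SRF regulates with TCFs, 5 fell and 3 rose with FG-4592 in MSCs (median −0.48) and 1 fell and 3 rose in osteocytes (median 0.03). Fosl1, an AP-1 subunit, rose by 3.42 in MSCs (SE 0.166, FDR 1.11e-10) and 3.29 in osteocytes (SE 0.167, FDR 1.41e-10), from a mean of 6.64 to 71.2 CPM and of 5.89 to 57.4 CPM. Nr4a1, an orphan nuclear receptor, fell by 1.44 and 1.13, and Fos fell by 1.43 in MSCs. Of 9 genes that MRTFs share with the Hippo pathway coactivator YAP, 4 rose and 2 fell in each cell type (medians −0.10 and 0.11). Thbs1, the matrix protein thrombospondin 1, rose by 0.50 in MSCs (FDR 2.51e-06) and 2.03 in osteocytes (FDR 1.02e-13). Ccn2, connective tissue growth factor, fell by 0.30 in MSCs (FDR 0.0078).

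**Figure D5:**
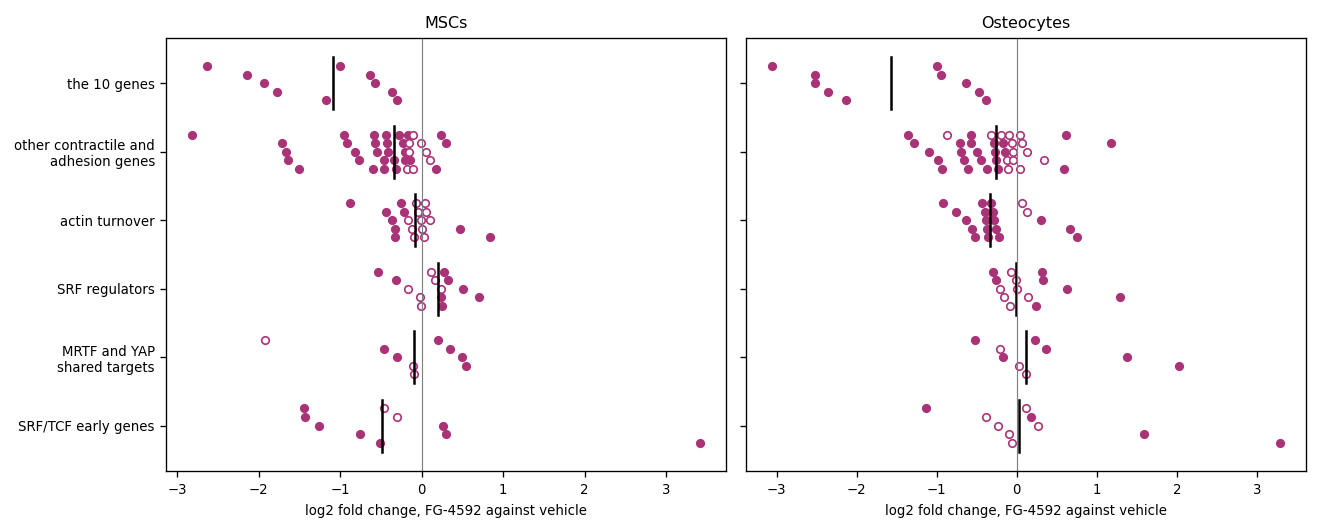
Log2 fold change with FG-4592 (horizontal axis) of each tested gene of the 10 and of 5 related lists in MSCs (left) and osteocytes (right). Filled points passed an FDR under 0.05, open points did not, and black lines mark the medians, which are lowest for the 10 genes at −1.09 and −1.57.

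Within the set the genes fell into 2 patterns over the 12 libraries, a grouping made after seeing the values. Actb, Actg1, Acta2, Tpm2 and Vcl were highest in vehicle-treated MSCs and fell with both FG-4592 and differentiation, with Pearson's r of log2 CPM between 0.841 and 0.992 for their pairs. Actg2, Tagln, Myl9 and Tpm1 fell with FG-4592 but either rose or had no fall past the test with differentiation in vehicle, with r between 0.811 and 0.989. Cnn1 was placed in neither. Across the patterns r ran from −0.0232, for Tagln and Tpm2, to 0.854, for Acta2 and Actg2, so the patterns overlap, and the median of all 45 pairs was 0.811. The points share 4 conditions, so these values mostly describe 4 condition means. By the same measure, among 12153 genes that averaged 100 counts or more in whichever condition was highest, the mean pattern of the 10 genes was closest to Palld (r = 0.994), which encodes the actin-bundling protein palladin, Lpar4 (0.985) and Sh3pxd2b (0.985). Actb was closest to Sdhb (0.993), Acta2 (0.992) and Psmb2 (0.991), Acta2 to Actb (0.992), Olfml3 (0.991) and Parp3 (0.990), and Tagln to Epn2 (0.971), Gtf2e1 (0.970) and Mief2 (0.970).

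Markers of other cells and of proliferation were read beside these results, and their counts stand against 20.4% of all genes lower and 17.6% higher with FG-4592 in MSCs, 22% and 21.9% in osteocytes, and 24.9% and 26% with differentiation in vehicle. The 6 proliferation markers summed to 709 to 727 CPM in vehicle-treated MSCs and 452 to 538 with FG-4592, and to 371 to 446 CPM in vehicle-treated osteocytes and 117 to 198 with FG-4592. Of these 6, 5 fell with FG-4592 in MSCs and 6 in osteocytes, and 6 fell with differentiation in vehicle. Bone cell markers fell with FG-4592 as well. Of 6 osteoblast markers 4 fell in MSCs and 5 in osteocytes, among them Ibsp, bone sialoprotein, by 4.12 in MSCs (FDR 3.39e-10) and the phosphatase gene Alpl by 1.99 (FDR 4.81e-10), although the summed level of the 6 overlapped between treatments in osteocytes, at 2849 to 3320 CPM with vehicle and 2895 to 3811 with FG-4592. The 6 osteocyte markers summed to 1.69 to 3.13 CPM in vehicle-treated MSCs and 0.375 to 0.772 with FG-4592, and to 61.4 to 76.7 CPM in vehicle-treated osteocytes and 6.06 to 7.00 with FG-4592. Of the 3 that were tested, Phex fell with FG-4592 in osteocytes by 4.35 (FDR 7.98e-11) and Dmp1 by 2.44 (FDR 2.12e-05), while the hormone gene Fgf23 rose by 5.81 (FDR 6.68e-05). The part of these markers in the result was not tested. The 8 mural cell markers summed to 777 to 815 CPM in vehicle-treated MSCs, 621 to 652 with FG-4592, 1188 to 1283 in vehicle-treated osteocytes and 831 to 866 with FG-4592, and with FG-4592 2 rose and 3 fell in MSCs and 3 rose and 3 fell in osteocytes. Most of that sum was Pdgfrb, a growth factor receptor, with 667 to 699 CPM in vehicle-treated MSCs and 1069 to 1154 in vehicle-treated osteocytes. With differentiation in vehicle 3 of the 7 mural markers tested rose, Mcam by 4.33 (FDR 9.74e-13), Rgs5 by 4.23 (FDR 1.52e-08) and Pdgfrb by 0.68 (FDR 2.10e-09) on the log2 scale, and 1 fell, Cspg4 by 1.39 (FDR 4.93e-10). With FG-4592 in osteocytes Cspg4 rose by 1.39 (FDR 6.42e-10), Notch3 by 0.78 (FDR 6.21e-09) and Mcam by 0.38 (FDR 0.0151). There Abcc9 fell by 2.94 (FDR 0.0226), Rgs5 by 2.09 (FDR 1.13e-05) and Pdgfrb by 0.76 (FDR 6.38e-10). The defining smooth muscle myosin Myh11 had 0 to 28 counts and the pericyte channel gene Kcnj8 was at 0 in every library. The 9 striated muscle markers summed to between 0.660 and 1.91 CPM and the 6 endothelial and blood markers to between 1.08 and 2.10 CPM in any library.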

How the data were processed

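mRNA was enriched with the KAPA mRNA Hyper Prep Kit from 12 samples and sequenced as 100-base pairs. Per the labels and the study's methods, the authors aligned reads to mm10 with STAR 2.7.2a and counted them per Gencode M22 gene with featureCounts (Subread 1.6.2), without strand, at a mapping quality of at least 10 and with a pair counted for every gene it overlapped. The deposited values are whole-number counts per gene, not normalized. From them, edgeR 4.0.16 (R 4.3.3) scaled libraries by TMM (factors 0.947 to 1.06), dropped genes that exceeded 10 counts in fewer than 3 libraries and fitted 1 quasi-likelihood model over all 12 libraries, with Benjamini-Hochberg adjustment over 16484 genes. The cutoffs (absolute log2 fold change above 1, FDR under 0.05) follow the study. A count of 3 equals 0.0447 to 0.0545 CPM, a limit for counting error only. The model was tested on simulated data, and the closing section gives the alternatives tried. RPKM used the deposited exon lengths. No pairing by replicate number was seen: for 18 same-number pairs the correlation of deviations lay between −0.135 and 0.0543. Replicate pairs differed beyond counting noise (chi-square per degree of freedom 9.19 to 35.3), so no pair was merged as 1 library, which does not tell separate cultures from repeat preparations. Genes named were the 10 genes, the SRF regulators Srf, Mrtfa, Mrtfb and Myocd, other actins, reference genes, overlapping genes, up to 3 list genes with the largest rise and fall per comparison (mean of at least 100 counts) and the 3 closest in pattern. Of the genes this rule covers, 1 reference gene and 1 regulator are not reported here. The genes and lists were chosen with earlier results of these data known.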

Additional observations from a re-analysis of the deposited data

Results flagged for a closer look

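The response to FG-4592 differed between osteocytes and MSCs for 3 of the 10 genes by the interaction test of edgeR's quasi-likelihood fit, at an FDR under 0.05. By that rule 11% of all genes had a lower and 13.3% a higher response in osteocytes. The log2 response in osteocytes minus that in MSCs was −1.89 for Tagln (FDR 0.000369), −0.75 for Acta2 (FDR 0.00327) and −0.30 for Actb (FDR 0.0231). All 3 genes fell in 3 of 3 FG-4592-treated libraries of either cell type. Groups of 3 libraries were too small for a test of single outlying libraries.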

How the results depend on the processing

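Of 1150 values of single genes under the alternatives, 1101 kept their sign and their side of the FDR threshold. All 10 genes stayed lower with FG-4592 at an FDR under 0.05 in MSCs under each of 24 alternatives, and 9 or 10 did in osteocytes. The number that also passed a log2 fold change of 1 was 5 or 6 in MSCs and 4 to 7 in osteocytes. In osteocytes it was 7 with library size alone, where Actb had −1.04, and 4 without FG-4592-treated osteocyte replicate 1, where Tpm1 had −0.97 and Cnn1 an FDR of 0.0508. Over all genes the lower calls in osteocytes moved too, from 702 of 16484 to 869 of 16484 and to 669 of 16308. For differentiation it was 2 to 4 in vehicle and 2 or 3 in FG-4592, and for the response difference it was 1 throughout. Of all 16484 genes, 1620 rose and 1003 fell by both cutoffs in vehicle, 2080 and 930 in FG-4592, and 649 and 177 for the response difference. Under scaling by 12 reference genes these were 1952 and 724, 2553 and 707, and 649 and 172. The alternatives included filterByExpr as the filter and scaling factors computed without the 10 genes. With a replicate block in place of unpaired libraries the counts were 6, 6, 3, 2 and 1, the same as without it. Over all genes the block gave fewer calls in each comparison, such as 791 instead of 853 lower with FG-4592 in MSCs and 667 instead of 702 in osteocytes. Of 12 libraries, 1 correlated best with its own number. No pairing by replicate number was seen, but 3 libraries per condition cannot show whether same-numbered libraries were cultured or prepared together.

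Signs turned for values near 0, and the cause was not tested. The Tpm1 response difference (0.0041) was −0.0172 with DESeq2, −0.0172 with RLE factors, −0.0024 with upper-quartile factors and −0.0088 with library size alone. Under scaling by 12 reference genes, chosen after seeing the data, which shifted the median of all genes by 0.19 for differentiation in vehicle and 0.20 in FG-4592, the Actg2 change with differentiation in vehicle was 0.0205 and the Tagln change in FG-4592 was 0.16, and Actg2 (−0.17) and Myl9 (−0.11) no longer passed in FG-4592. Under the same scaling Myl9 (0.25, FDR 0.0485) passed in vehicle and Tpm1 had 0.53 in vehicle and 0.54 in FG-4592. Taking Ap3m1 counts off Vcl, also chosen after seeing the data, gave a response difference of 0.0756. Leaving out each library in turn gave −0.0026 to 0.21 for Myl9 with differentiation in vehicle and −0.26 to 0.18 for Tagln in FG-4592. For the response difference it gave −0.18 to 0.0865 for Actg1, −0.92 to 0.82 for Cnn1, −0.0694 to 0.0410 for Tpm1 and −0.0767 to 0.0286 for Vcl. The Myl9 response difference passed with no filter (−0.36, FDR 0.00195), and Cnn1 with differentiation in vehicle passed with the likelihood ratio test (FDR 0.0295), DESeq2 (FDR 0.0405), no filter (FDR 0.0394) and only the libraries compared (FDR 0.0273). Counts not divided by length gave a fall of the smooth muscle actin share of −11.1 percentage points in MSCs and −10.3 in osteocytes. Depth limits Cnn1 most, with 2 counts in 2 libraries.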
